A study of Homo sapiens with 27 samples.

Results

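The 10 genes described here are SQSTM1, NBR1, MAP1LC3B, GABARAP, GABARAPL1, GABARAPL2, ULK1, WIPI1, ATG9A and UVRAG, a set of autophagy receptors, ATG8 family members and upstream autophagy factors. They were chosen by name and read from the U937 table through their Ensembl identifiers, where all 10 were found among 57905 gene identifiers (in the order above ENSG00000161011, ENSG00000188554, ENSG00000140941, ENSG00000170296, ENSG00000139112, ENSG00000034713, ENSG00000177169, ENSG00000070540, ENSG00000198925 and ENSG00000198382). These genes and the gene lists used below were chosen with earlier results of these data known. Their counts are set against all genes as a description, which cannot test for an excess. U937 is a human myeloid leukemia cell line, grown here in RPMI medium with fetal bovine serum. There were 3 libraries each of control cells, which got no matrine, and of cells exposed to matrine at 0.8 mg/ml over either 30 min or 24 h. Matrine is an alkaloid of Sophora flavescens, and the study's vehicle for it was ddH2O. Both times were set against the same 3 control libraries. The sources used here do not say how long the control cells were in culture, so that time in culture and 24 h of treatment cannot be told apart. The labels do not say whether replicates came from separate cultures, and the study's methods call replicates independent in general without describing those of the sequencing, so that p-values measure the spread between these libraries, which may be technical in part.

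Autophagy delivers cytoplasmic cargo to the lysosome inside a double membrane vesicle, the autophagosome. The ULK1 kinase complex starts the process, ATG9A vesicles and a class III PI3-kinase build the membrane, and WIPI proteins bind the lipid that this kinase makes. ATG8 proteins, namely the LC3 and GABARAP families, are then coupled to the membrane lipid, where receptors such as p62 (SQSTM1) and NBR1 bind them and bring in ubiquitinated cargo. The mRNA levels given here do not measure how much autophagy took place. They are FPKM values, fragments scaled by gene length and by the total of the library. Comparisons between genes therefore depend on the gene lengths, and the sources used here do not say how these were set. Counts and FPKM imply 2266 bases for GABARAP, 3034 for GABARAPL2, 5315 for MAP1LC3B and 7664 for SQSTM1. In these bulk samples, fewer cells with an mRNA and less of it per cell cannot be told apart.

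Total counts lay between 17314931 and 21930018 per library, with 4.99% to 5.28% of each total in its 10 largest genes. Of 10 myeloid marker genes, 9 had a mean above 1 FPKM, MPO being the exception, and their summed level was 583.7 to 589.3 FPKM in the control, 580.2 to 596.6 at 30 min and 658.1 to 670.1 at 24 h. Of 6 erythroid genes that mark K562, another line of the study, 2 were at 0 in every library, and KLF1 alone had a mean above 1 FPKM. Their summed level was 2.43 to 3.92 FPKM in the control, 2.40 to 4.12 at 30 min and 2.84 to 3.51 at 24 h. By the test used below, 3 of the 10 myeloid markers (MPO, ITGB2 and CSF3R) were called higher at 24 h, where 13.8% of all genes tested were. MPO entered this test only through its 24 h libraries, with a mean of 1.84 FPKM there and 0.31 FPKM in the control. CD4 and PTPRC were higher and LYZ, SPI1 and CEBPA lower at an adjusted p below 0.05, but under 1.5-fold. ITGB2 went from a mean of 113.6 to 223.0 FPKM and LYZ from 292.3 to 243.6 FPKM. The part of the higher myeloid sum at 24 h in the results below was not tested.

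SQSTM1 had the highest mRNA level of the 10 genes in the control, at 22.9 ± 0.35 FPKM (SD, n = 3 libraries), followed by GABARAP at 21.2 ± 1.33 FPKM. ULK1 came next at 9.18 ± 0.31 FPKM, then GABARAPL2 at 7.81 ± 0.61, ATG9A at 6.32 ± 0.45, MAP1LC3B at 5.12 ± 0.38, UVRAG at 4.35 ± 0.32 and NBR1 at 3.83 ± 0.36 FPKM. WIPI1, at 1.03 ± 0.14 FPKM, and GABARAPL1, at 0.290 ± 0.056 FPKM, were the lowest. Of the neighbours in this order, UVRAG and NBR1 overlapped in their libraries, and the lowest library of SQSTM1, at 22.54 FPKM, was nearly equal to the highest of GABARAP, at 22.53 FPKM. After 24 h the order had changed in its lower part. MAP1LC3B, at 10.0 ± 0.41 FPKM, then lay above GABARAPL2, at 8.94 ± 0.36 FPKM, and NBR1, at 6.52 ± 0.017 FPKM, above UVRAG, at 5.04 ± 0.13 FPKM. WIPI1, at 5.12 ± 0.27 FPKM, had reached the level of UVRAG, with overlapping libraries.

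**Figure D1:**
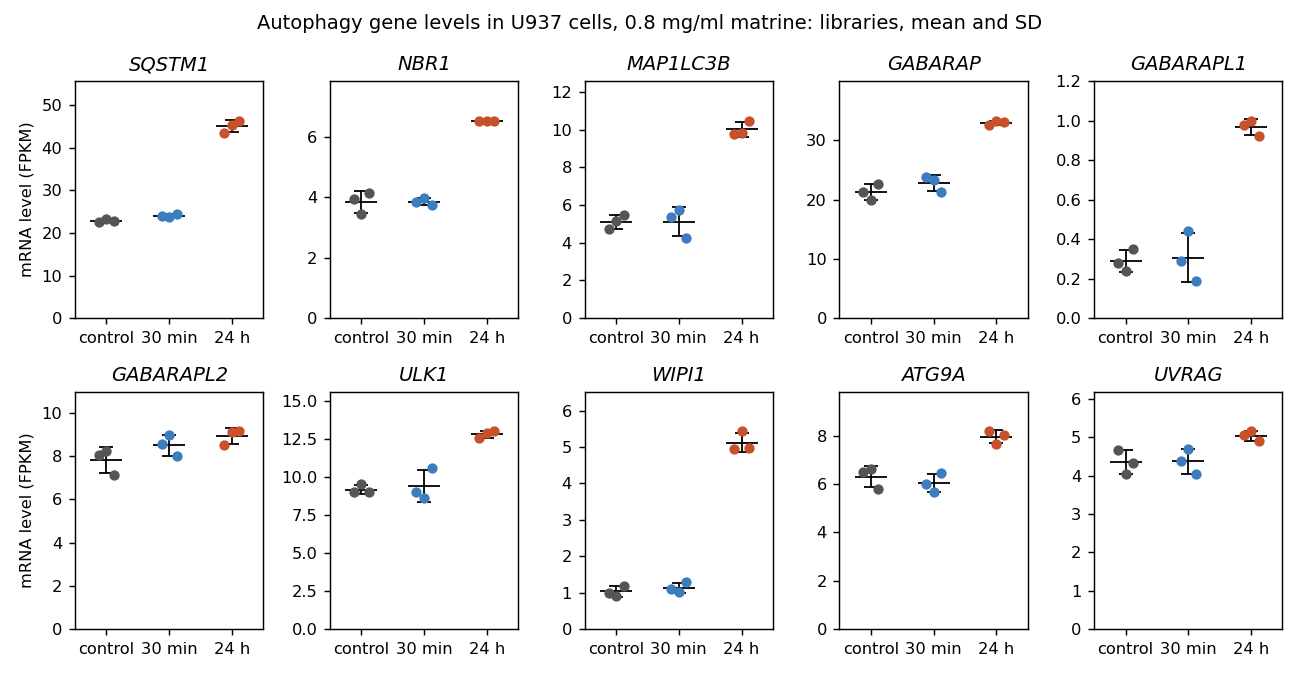
mRNA level in FPKM (vertical axis, from 0) of each of the 10 genes in control cells and after 30 min or 24 h with matrine; points are the 3 libraries of a group, bars the mean and SD. The 24 h libraries of SQSTM1, from 43.5 to 46.4 FPKM, and of WIPI1, from 4.95 to 5.43 FPKM, lie far above those of the other groups, while those of GABARAPL2, from 8.52 to 9.16 FPKM, lie close to the control.

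To see whether matrine treatment changed these genes, counts were tested with edgeR's quasi-likelihood test over all genes with a mean above 1 FPKM in the 6 libraries compared. Calls needed a Benjamini-Hochberg adjusted p under 0.05 together with a difference of 1.5-fold or more. After 24 h, 4 of the 9 genes tested were up-regulated, namely WIPI1, SQSTM1, MAP1LC3B and NBR1, and 0 were down-regulated. Among all 12033 genes tested at 24 h, 13.8% were called higher and 12.8% lower, so that 51.9% of the calls were higher, a share that was 63% with libraries scaled by their totals alone. Another 3 genes, GABARAP, ULK1 and ATG9A, passed the adjusted p but stayed under 1.5-fold, which makes 7 of 9 higher at any fold, against 29.1% of all genes tested. UVRAG and GABARAPL2 did not pass. In 7 of the 9 tested genes every 24 h library lay above every control library, which held for 32.2% of all genes tested. GABARAPL1 was too low to be tested. The median log2 fold change was 0.54 over the 9 tested genes and 0.61 over all 10, against -0.03 over all genes tested.

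Because several of the genes changed together at 24 h, their promoters were searched for 5 short motifs on both strands in windows of 300 bases, from 250 before to 50 after each RefSeq gene start (GRCh38.p14). Windows were found for 9 of the 10 genes, 12 windows in all, since SQSTM1 has 3 and NBR1 has 2. The E-box core CACGTG was in 0 of the 12 and in 7.26% of all 35116 promoters, and its extended form TCACGTG, which contains it and which TFEB and TFE3 bind, was in 0 and in 3.71%. TGATGNAA, the C/EBP-ATF composite, was in 0 and in 3.62%, and GTAAACA, the FOXO site, in 0 and in 3.42%. TGACNNNGC, the core of the antioxidant response element, was in 1, that of MAP1LC3B, and in 13.3% of all promoters. Over the 104 promoters of a wider set of 87 autophagy genes, the 10 included, the shares were 6.73%, 5.77%, 2.88%, 1.92% and 15.4% in the same order of motifs. A missing match says only that these letters are not in this window. The GC content of the 12 windows ran from 51.7% to 79.7%, with a median of 71%, against 58.7% over all promoters, which include those of noncoding genes. The 250 bases before the start are shown for MAP1LC3B, with the match in capitals, and for SQSTM1 at the most downstream of its starts and WIPI1, the up-regulated genes with the highest level and the largest change, in which no motif was found.
MAP1LC3B, chr16:87392086-87392335, plus strand: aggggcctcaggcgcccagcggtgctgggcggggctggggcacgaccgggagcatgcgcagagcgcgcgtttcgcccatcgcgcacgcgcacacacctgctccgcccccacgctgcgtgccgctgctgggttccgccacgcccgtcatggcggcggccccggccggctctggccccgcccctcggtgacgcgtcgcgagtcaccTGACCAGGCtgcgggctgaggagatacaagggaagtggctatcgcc
SQSTM1, chr5:179820655-179820904, plus strand: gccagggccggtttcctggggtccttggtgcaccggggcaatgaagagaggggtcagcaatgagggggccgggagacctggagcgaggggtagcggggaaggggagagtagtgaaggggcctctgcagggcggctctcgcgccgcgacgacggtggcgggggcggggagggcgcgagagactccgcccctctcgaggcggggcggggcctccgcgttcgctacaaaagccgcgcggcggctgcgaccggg
WIPI1, chr17:68457497-68457746, minus strand: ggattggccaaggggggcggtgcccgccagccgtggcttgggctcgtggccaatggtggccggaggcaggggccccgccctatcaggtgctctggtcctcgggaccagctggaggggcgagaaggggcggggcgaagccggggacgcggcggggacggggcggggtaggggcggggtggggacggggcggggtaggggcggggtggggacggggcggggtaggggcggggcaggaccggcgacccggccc

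Both receptors were up-regulated at 24 h. SQSTM1 encodes p62, a receptor that binds ubiquitin on cargo and ATG8 proteins on the membrane and is itself degraded with the cargo. Its mRNA was at 22.5, 23.2 and 22.9 FPKM in the 3 control libraries, 24.1, 23.7 and 24.5 at 30 min and 43.5, 45.4 and 46.4 at 24 h. All 24 h libraries lay above all others, and the 30 min libraries lay narrowly above the control. The log2 fold change at 24 h was 0.89 (standard error 0.057, adjusted p = 1.3e-15 with edgeR), a 1.85-fold increase. NBR1, a receptor with the same kind of domains, was at 3.93, 3.44 and 4.13 FPKM in the control, 3.85, 3.96 and 3.75 at 30 min and 6.53, 6.50 and 6.53 at 24 h. The 24 h libraries of NBR1 were nearly equal and lay above all others. Its log2 change of 0.68 (edgeR, standard error 0.079, adjusted p = 3.3e-09) had a 95% interval of 0.52 to 0.84, which holds the 1.5-fold threshold of 0.58.

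SQSTM1 spans positions 179806398 to 179838078 of chromosome 5 (GRCh38) and shares exon sequence with MGAT4B and MRNIP, both on the opposite strand. The strand setting of the counts is not given in the sources used here, so reads of such partners may be shared or lost. Of these, MRNIP was up-regulated at 24 h too, with a log2 fold change of 0.71, and MGAT4B was at 0.13 with an adjusted p of 0.087 in edgeR. NBR1 lies on chromosome 17 from 43170481 to 43211689, with ENSG00000267002, a lncRNA with a mean of 27 counts, on the opposite strand.

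The ATG8 family forms the coat of the autophagosome and the docking site of the receptors. MAP1LC3B, which encodes LC3B, the usual marker of autophagosomes, was at 4.73, 5.14 and 5.48 FPKM in the control, 5.36, 5.73 and 4.24 at 30 min and 9.75, 9.81 and 10.5 at 24 h. The control and 30 min libraries overlapped, and the 24 h libraries lay above both. Its log2 fold change at 24 h was 0.88 (standard error 0.092, adjusted p = 2.5e-10 with edgeR), or 1.84-fold. GABARAP, the ATG8 mRNA with the highest FPKM, was at 21.3, 19.9 and 22.5 FPKM in the control, 23.8, 23.4 and 21.2 at 30 min and 32.6, 33.3 and 33.0 at 24 h. At 24 h it was higher in 3 of 3 libraries by 1.46-fold, or 0.54 on the log2 scale (standard error 0.073; edgeR, adjusted p = 5.2e-08). GABARAP therefore sat just under the 1.5-fold threshold, and it was called, as the fifth gene, when libraries were scaled by their totals alone (log2 fold change 0.63), with limma on log2(FPKM + 0.1), at 0.63, or on log2(FPKM + 1), at 0.61, and with TMM factors from the tested genes alone, at 0.59.

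GABARAPL1, a close relative of GABARAP, was at 24, 19 and 25 counts in the control, 26, 37 and 16 at 30 min and 82, 83 and 82 at 24 h. At 0.28, 0.24 and 0.35 FPKM in the control and 0.98, 1.00 and 0.92 FPKM at 24 h it stayed below the filter on low values. The 24 h libraries lay above all others, and the fitted log2 fold change of 1.64 had a standard error of 0.25. Without the filter, its adjusted p at 24 h was 1.3e-06 with edgeR. GABARAPL2, another member of the GABARAP family, did not pass the test. Its libraries were at 8.08, 8.24 and 7.12 FPKM in the control, 8.55, 8.98 and 8.0 at 30 min and 8.52, 9.14 and 9.16 at 24 h. In FPKM the 24 h libraries lay narrowly above the control, but on the TMM scale of the test they overlapped, and the log2 fold change was 0.10 (95% interval -0.08 to 0.29, adjusted p = 0.34 with edgeR), which leaves out a 1.5-fold change in either direction.

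Of the other ATG8 genes, MAP1LC3A had 0 to 5 counts per library, and MAP1LC3B2 and MAP1LC3C were listed at 0. MAP1LC3B2 is a near-identical copy of MAP1LC3B and GABARAPL3, with 0 to 3 counts, a copy of GABARAPL1, and how reads that map to several places were handled is not given in the sources used here. MAP1LC3B lies on chromosome 16 of GRCh38 from 87383953 to 87404779 and shares exon sequence with FBXO31 on the opposite strand, whose log2 fold change at 24 h was -0.26. GABARAP lies on chromosome 17 from 7240008 to 7242449, GABARAPL1 on chromosome 12 from 10212458 to 10223128 and GABARAPL2 on chromosome 16 from 75566375 to 75577881. GABARAP shares exon sequence with ENSG00000262526, a protein-coding gene on the same strand with a mean of 0 counts, so reads may be shared or lost here too.

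The make-up of the ATG8 mRNA pool was then described, and the share of each in their summed FPKM was compared. The sum was 34.5 ± 1.00 FPKM (SD, n = 3) in the control, 36.7 ± 2.64 at 30 min and 52.9 ± 0.90 at 24 h. MAP1LC3B took 13.7%, 15.3% and 15.4% of it in the control, 14.1%, 14.9% and 12.6% at 30 min and 18.8%, 18.4% and 19.6% at 24 h. GABARAPL2 took 23.5%, 24.6% and 20.1% in the control, 22.5%, 23.3% and 23.8% at 30 min and 16.4%, 17.2% and 17.1% at 24 h. For both genes the 24 h libraries lay apart from all others, in opposite directions, and MAP1LC3B passed GABARAPL2 in all 3 of them. GABARAP held 61.6% ± 2.11 in the control and 62.3% ± 0.66 at 24 h, with overlapping libraries. GABARAPL1 held 0.84% ± 0.14 and 1.83% ± 0.096. Shares of a sum depend on each other and on the gene lengths used for FPKM. An exact permutation test of 3 against 3 libraries gives no p below 0.1.

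**Figure D2:**
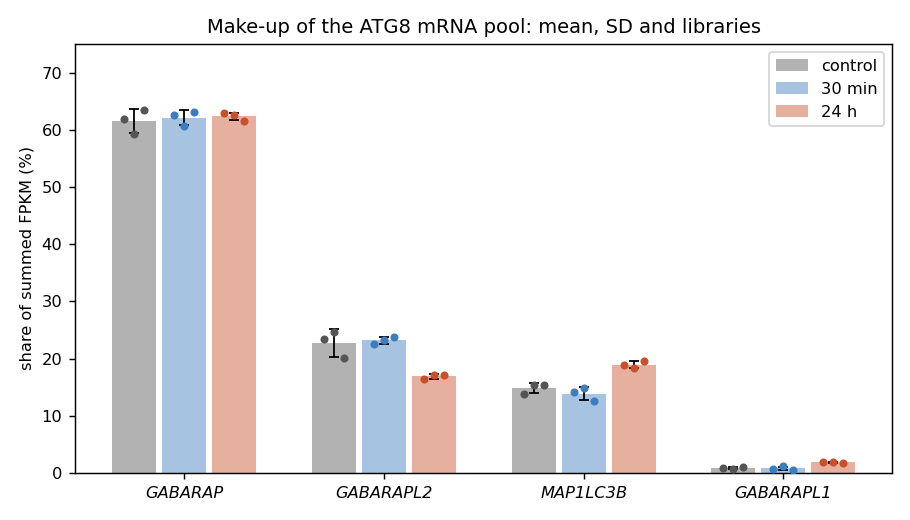
Share of each ATG8 gene in the summed FPKM of the 4 genes (vertical axis, percent, from 0) in control, 30 min and 24 h cells; bars are means, error bars SD and points the 3 libraries. The share of GABARAPL2 goes from 22.7% to 16.9% and that of MAP1LC3B from 14.8% to 18.9% between control and 24 h, while GABARAP stays near 62%.

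Among the factors that act before the ATG8 proteins, WIPI1 stood apart. WIPI1 binds the phosphoinositide of the forming autophagosome. It was at 71, 60 and 70 counts in the control, 81, 71 and 89 at 30 min and 346, 376 and 370 at 24 h, or 1.00, 0.91 and 1.19 FPKM, 1.09, 1.02 and 1.28 FPKM and 4.95, 5.43 and 4.98 FPKM. The control and 30 min libraries overlapped, and all 24 h libraries lay far above them. At 2.22 on the log2 scale (standard error 0.14, edgeR, adjusted p = 4.0e-16), or 4.66-fold, WIPI1 had the largest change of the 10 genes at 24 h. With limma on log2(FPKM + 1), a scale that understates changes of low genes, its log2 fold change was 1.591. It lies on chromosome 17 of GRCh38 from 68420948 to 68457513 and overlaps ARSG on the opposite strand, which had a log2 fold change of 0.24 and an adjusted p of 0.12 in edgeR.

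ULK1, the kinase that starts autophagy, was at 8.99, 9.54 and 9.02 FPKM in the control, 9.0, 8.60 and 10.6 at 30 min and 12.6, 12.9 and 13.02 at 24 h. The 24 h libraries lay above all others, but the change was 1.31-fold, or 0.39 on the log2 scale (standard error 0.073, adjusted p = 1.7e-05 with edgeR). ATG9A, the membrane protein of the vesicles that seed the autophagosome, was at 6.51, 6.64 and 5.81 FPKM in the control, 6.01, 5.68 and 6.45 at 30 min and 8.20, 7.66 and 8.06 at 24 h. Its libraries did not overlap either, and its log2 fold change was 0.24 (standard error 0.076, adjusted p = 0.0056 with edgeR). This adjusted p rose to 0.13 without control replicate 3 and to 0.057 without 24 h replicate 1 or replicate 3. Whether ATG9A passed thus depended on which libraries were in the fit. The median log2 fold change of all tested genes moved too, from -0.03 to -0.06 without control replicate 3 and to -0.07 without either of these 24 h replicates. UVRAG, a subunit of a class III PI3-kinase complex, was at 4.68, 4.04 and 4.34 FPKM in the control, 4.39, 4.69 and 4.04 at 30 min and 5.07, 5.16 and 4.90 at 24 h. Its log2 fold change of 0.12 (95% interval -0.05 to 0.30, adjusted p = 0.22 with edgeR) did not pass, and the interval leaves out a 1.5-fold change. As with GABARAPL2, its 24 h libraries lay above the control in FPKM but overlapped it on the TMM scale. ULK1 lies on chromosome 12 of GRCh38 from 131894622 to 131923150, ATG9A on chromosome 2 from 219219380 to 219229717 and UVRAG on chromosome 11 from 75815210 to 76144232. ATG9A shares exon sequence with ENSG00000284820, a protein-coding gene on the same strand that has no value in the deposited counts.

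At 30 min the picture was different. Of the 9 genes tested, 0 were called in either direction by edgeR, 0 had an unadjusted p below 0.05 (12% of all genes tested had one), and DESeq2 and limma made 0 calls among them as well. Of all 11585 genes tested at 30 min, 0.129% were called higher and 0.552% lower. The libraries of SQSTM1 lay above the control without overlap and those of 0 genes below it, against 7.31% and 6.95% of all genes tested. The log2 fold changes of the 10 genes ran from -0.03 for ATG9A to 0.16 for WIPI1, and their median over the 9 tested genes was 0.07, against 0.02 over all genes tested. For SQSTM1 the 95% interval was -0.01 to 0.22 and for MAP1LC3B -0.16 to 0.23, so that a 1.5-fold change lay outside in both. Only for GABARAPL1, with its low counts, was the interval wide enough to hold a 1.5-fold change, from -0.48 to 0.71. MYC, the study's central gene, had already fallen by 1.91 on the log2 scale at this time.

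The test of 24 h against 30 min, which does not use the control libraries as a group, called WIPI1, MAP1LC3B, SQSTM1 and NBR1 higher, 4 of 9 tested genes, while 14% of all 11979 genes tested were called higher. The log2 differences were 2.06 for WIPI1 (standard error 0.13), 0.85 for MAP1LC3B (standard error 0.091), 0.78 for SQSTM1 (standard error 0.057) and 0.63 for NBR1 (standard error 0.079), with adjusted p-values from 1.4e-15 to 1.1e-08 in edgeR. At any fold, 7 of the 9 were higher at an adjusted p below 0.05, against 29.7% of all genes tested, and the same number had an unadjusted p below 0.05, against 68.1%. Likewise 7 of the 9 had every 24 h library above every 30 min library, against 31.7%. This comparison shares its 24 h libraries with the one against the control.

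**Figure D3:**
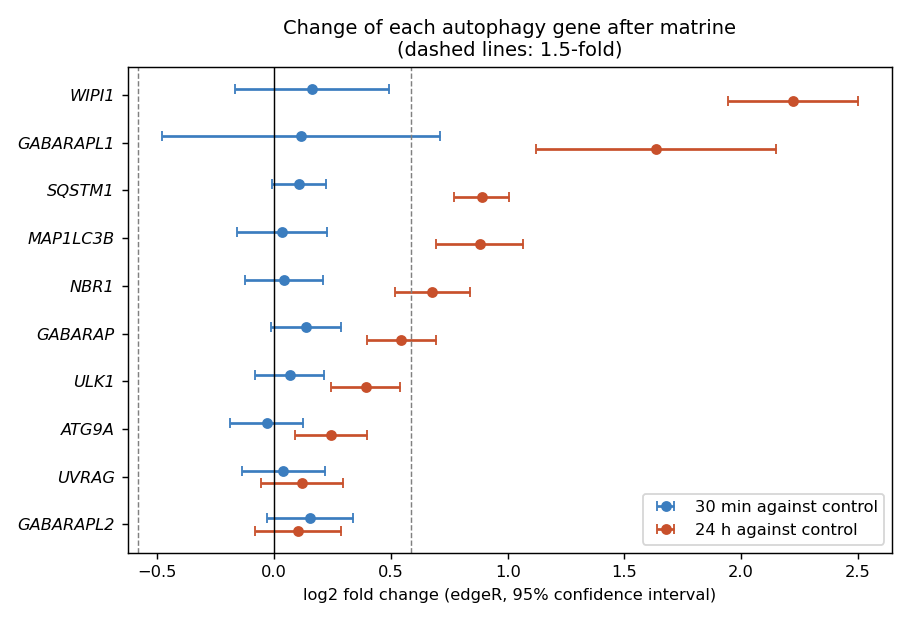
Log2 fold change against the control (horizontal axis) of the 10 genes at 30 min and 24 h, with 95% confidence intervals from edgeR; dashed lines mark 1.5-fold. At 30 min the points lie between -0.03 and 0.16, and at 24 h they spread from 0.10 for GABARAPL2 to 2.22 for WIPI1.

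The other genes of the autophagy pathway were followed through lists by role, which hold 87 genes with the 10 above, of which 86 were matched (NCOA4 was not). Apart from the 10 genes, 13 of 67 tested genes were up-regulated at 24 h and 0 were down-regulated, against 13.8% and 12.8% of all genes tested. Their median log2 fold change was 0.20, against -0.03 over all genes tested. At any fold, 35 of the 67 were higher and 12 lower, against 29.1% and 35% of all genes tested. OPTN, described below, is among the 13 and the 35. It passed the filter only through its 24 h libraries, with a mean of 3.41 FPKM there and 0.67 FPKM in the control. At 30 min, 0 of 66 were called. At any fold, 1 (ATG16L1) was then higher and 1 (DDIT4) lower, against 0.518% and 1.54% of all genes tested at 30 min. Since the lists were chosen with earlier results of these data known, these counts describe them and do not test for an excess.

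Of 17 tested receptors, 5 were up-regulated, SQSTM1 and NBR1 included, against 13.8% of all genes tested. At any fold, 10 of the 17 were higher and 2 lower, against 29.1% and 35% of all genes tested. The 2 lower receptors were BNIP3 at -0.33 and FKBP8 at -0.23 on the log2 scale. OPTN, optineurin, a receptor for mitochondria and bacteria, went from 0.80, 0.68 and 0.53 FPKM in the control to 3.43, 3.15 and 3.65 FPKM at 24 h, with no overlap and the largest log2 fold change of this list, 2.25 (standard error 0.15, adjusted p = 1.3e-15 with edgeR). Its control and 30 min libraries lay below the filter of 1 FPKM. OPTN thus entered the test, and the counts of 5 and 10, only through its 24 h level, and it was not tested at 30 min. BNIP3L, a mitochondrial receptor, rose from 5.88, 4.64 and 5.2 FPKM to 21.8, 20.5 and 20.3 FPKM, with a log2 fold change of 1.9, and RETREG1, a receptor of the endoplasmic reticulum, had one of 0.71; these genes were named after their values were seen. SQSTM1 thus had the highest FPKM of the called receptors but changed less than OPTN and BNIP3L on the fold scale.

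In the list of ATG9 vesicles, lipid effectors and lipid transfer, 3 of 10 tested genes were up-regulated, against 13.8% of all genes tested. Beside WIPI1 these were ZFYVE1, which encodes DFCP1, a marker of the site where autophagosomes form, with a log2 fold change of 1.35 (standard error 0.11), and TMEM41B, a lipid scramblase named after its value was seen, with 1.00. WIPI2, a relative of WIPI1 named after its values were seen, was at 13.03, 13.8 and 13.2 FPKM in the control, 13.06, 13.05 and 13.4 at 30 min and 11.7, 11.4 and 12.3 at 24 h. Its 24 h libraries lay below all others, with a log2 fold change of -0.27 (adjusted p = 0.00042 with edgeR), under 1.5-fold and opposite in sign to WIPI1. Of the 4 tested genes of the ULK1 complex and the 8 of the class III PI3-kinase complexes, 0 were called. Among all genes tested, 13.8% were called higher and 12.8% lower, so that 0 calls in lists this short say little about these complexes. At any fold, 2 genes of the ULK1 complex were higher and 0 lower, and 2 of the class III PI3-kinase complexes were higher and 2 lower. Of all genes tested, 29.1% were higher and 35% lower at any fold.

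Among 11 tested genes of the conjugation machinery, which couples ATG8 proteins to lipid, 1 was called, ATG16L2, with a log2 fold change of 1.08 (standard error 0.078). Of all genes tested, 13.8% were called higher and 12.8% lower. At any fold, 4 of the 11 were higher and 2 lower, against 29.1% and 35% of all genes tested. ATG3 and ATG5, which carry out the coupling and were named after their values were seen, had log2 fold changes of -0.52 and -0.37, lower but under 1.5-fold. ATG4D at 0.47, ATG12 at 0.45 and ATG4B at 0.24, also named after their values were seen, were higher but under 1.5-fold. Of 8 tested genes of fusion with the lysosome, 2 were up-regulated, TECPR1 at 0.76 and EPG5 at 0.64, against 13.8% of all genes tested. At any fold, 4 of the 8 were higher and 1, RAB7A at -0.24, was lower, against 29.1% and 35%. Among 15 tested upstream regulators 5 were up-regulated, against 13.8% of all genes tested. At any fold, 10 of the 15 were higher and 4 lower, against 29.1% and 35% of all genes tested. The 4 lower ones, all under 1.5-fold, were RPTOR, a subunit of mTORC1, at -0.58, FOXO1 at -0.49, PRKAA1 at -0.21 and MLST8 at -0.18. DDIT4, an inhibitor of mTORC1, had the largest change of all role lists. It was at 8.34, 10.4 and 9.04 FPKM in the control, 6.07, 6.29 and 6.55 at 30 min and 121.7, 135.3 and 130.9 at 24 h. Its log2 fold change was 3.71 at 24 h, and at 30 min it was -0.52 (adjusted p = 0.00032 with edgeR), under the fold threshold. The other called regulators, named after their values were seen, were SESN2 (1.79), FNIP2 (1.41), FLCN (0.85) and TSC1 (0.65), which act around AMPK and mTORC1. TFEB and TFE3, transcription factors of autophagy and lysosome genes that were also named after their values were seen, had log2 fold changes of 0.28 and 0.43, higher but under 1.5-fold.

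**Figure D4:**
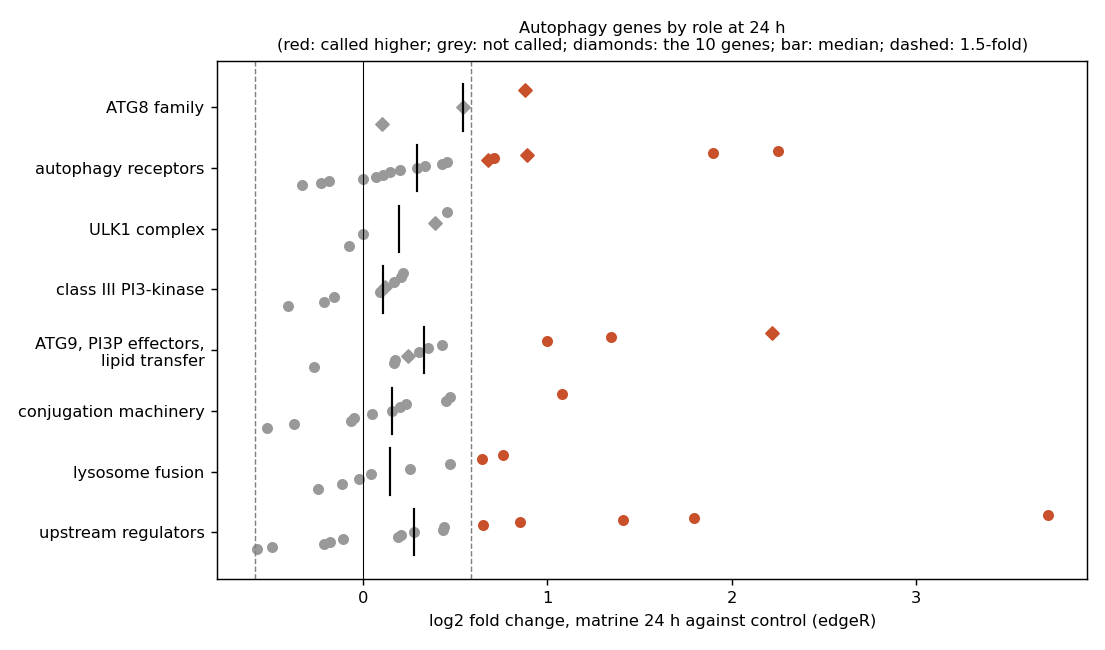
Log2 fold change at 24 h against control (horizontal axis) of the tested autophagy genes by role; red points are called higher, grey points not called, diamonds are among the 10 genes, black bars are list medians and dashed lines mark 1.5-fold. The called genes all lie on the right, with DDIT4 at 3.71 farthest, and no gene is called lower.

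By the shape of their level over the 9 libraries, the genes most like SQSTM1 were PSAP, LAPTM5, NAGK, ARHGEF25 and ALDOC, with Pearson's r of log2 CPM from 0.998 to 0.999. PSAP encodes prosaposin, a lysosomal precursor protein, and LAPTM5 a lysosomal membrane protein of blood cells. NAGK, ARHGEF25 and ALDOC are not described here, and a shared function of all these genes was not tested. This is a description over 3 groups of 3 libraries, and 1010 of the 12024 genes compared had an r above 0.95. The log2 fold changes of PSAP were 0.09 at 30 min and 1.01 at 24 h, and those of LAPTM5 0.06 and 0.57.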

How the data were processed

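The authors mapped the reads with HISAT2 (2.0.1), counted them per gene with HTSeq (0.6.1) and deposited, for each of the 9 U937 libraries, the unnormalized count and the FPKM value of every gene; the labels also name cutadapt (1.9.1). The genome is hg38 in the paper's methods and GRCh37 in the labels; the coordinates printed are those of GENCODE release 44 on GRCh38 and may differ from the annotation used for counting. The annotation release is not given in the sources used here. HL-60 and K562 libraries were not analysed here.

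The 10 genes and all gene lists were chosen with earlier results of these data known. Symbols were matched for 51996 identifiers. The deposited counts were tested with edgeR 4.0.16 (R 4.3.3; TMM over genes with a summed count of at least 10, quasi-likelihood test, all 9 libraries in one fit, Benjamini-Hochberg adjustment over genes with a mean FPKM above 1). Each standard error was obtained by dividing the log2 difference by the square root of its F value. The fit was checked on simulated data with known changes, where it recovered 193 of 200 changed genes with 3 false calls at 24 h against control. The simulation gave every gene the same added spread between replicates and changed far fewer genes than were called here. It therefore does not give the error rate in these data. Alternatives used limma 3.58.1 on log2(FPKM + 0.1) or log2(FPKM + 1), DESeq2 1.42.0, other filters, scalings and thresholds, a replicate block, the 6 libraries of a comparison alone and each library left out. By rule, the genes named beyond the 10 were, per list and comparison, the called gene with the largest change and no overlap between groups, the 5 genes most like SQSTM1, and MYC; all other genes were named for a shared sequence or position or after their values were seen. Counts of replicates differed by more than the sampling noise in every pair, with a chi-square per degree of freedom from 2.21 to 14.1. A protein comparison of the ATG8 family, planned at the start, was not made. A check on markers of other lineages is not reported here.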

Additional observations from a re-analysis of the deposited data

Results flagged for a closer look

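In 4 of the 9 tested genes the change against control differed between the times by at least 1.5-fold. This was at an adjusted p below 0.05 by the edgeR test of 24 h against 30 min. Of all 11979 genes tested, 14% were called higher and 13.1% lower by the same rule. The log2 change at 24 h exceeded that at 30 min by 2.06 in WIPI1, 0.85 in MAP1LC3B, 0.78 in SQSTM1 and 0.63 in NBR1. GABARAPL1 was too low to be tested. GABARAP (0.41), ULK1 (0.33) and ATG9A (0.28) also passed the adjusted p, but under 1.5-fold. At any fold, 7 of the 9 were thus higher, against 29.7% of all genes tested.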

How the results depend on the processing

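At 30 min, 0 of the 10 genes were called under each of the 21 alternatives run, and at 24 h 0 were called lower. The 4 genes higher at 24 h, against control and against 30 min, were 7 without a fold change threshold and 1 (WIPI1) at a fold change of at least 2, by construction. A filter at a mean of 5 FPKM left 3, since WIPI1 was then not tested, and no filter gave 5 with GABARAPL1. GABARAP was the fifth gene at 24 h against control under the scalings named with its value; the other alternatives gave 4. With the replicate number as a block, 4 genes were called higher in both comparisons and 0 lower. Libraries with the same number did not deviate together (r of deviations from the group means -0.22 to 0.12, against -0.21 to 0.23 for different numbers), and a library correlated best with its own number in 6 of 18 comparisons.

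Fold changes near 0 changed sign. MAP1LC3B at 30 min was -0.011 and -0.0079 with limma at pseudocounts 0.1 and 1, and GABARAPL2 at 24 h against 30 min was 0.071 with library totals or limma on log2(FPKM + 0.1) and 0.064 with a pseudocount of 1; the cause was not tested. Leaving out single libraries at 30 min gave -0.049 to 0.15 for MAP1LC3B, -0.029 to 0.13 for ULK1, -0.11 to 0.015 for ATG9A, -0.023 to 0.076 for NBR1 and -0.0089 to 0.093 for UVRAG. GABARAPL1, not tested there, ran from -0.22 without 30 min replicate 2 to 0.36 without 30 min replicate 3. UVRAG at 24 h had an adjusted p of 0.034 with library totals, and UVRAG and GABARAPL2 passed 0.05 with limma, all under 1.5-fold. Library totals alone moved the share of higher genes among all calls from 51.9% to 63% at 24 h and from 51.7% to 67.4% at 24 h against 30 min, where the median of all genes moved from -0.03 to 0.09. Among all genes at 24 h against control, 1657 higher and 1538 lower calls were 2778 and 1900 without a filter, 682 and 1080 above 5 FPKM, 3496 and 4215 without a fold threshold, 705 and 414 at 2-fold, and 1485 and 896 with limma at a pseudocount of 1. At 30 min, 15 and 64 were 25 and 74, 8 and 42, 60 and 178, 1 and 24, and 7 and 52, and 24 and 71 without 30 min replicate 2. At 24 h against 30 min, 1676 and 1565 were 2927 and 1888, 669 and 1133, 3558 and 4254, 715 and 400, and 1591 and 820. The TMM factors from the tested genes alone were added after the data were seen. For WIPI1 and GABARAPL1, low counts limit the precision.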
